A study of Mus musculus with 15 samples.

Results

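The cluster of miR-379 and miR-410 is a run of microRNA hairpins in the imprinted Dlk1-Dio3 region of mouse chromosome 12. Its 35 listed hairpins, chosen by name, were all found among the 1226 hairpins of the deposited table, and each of them had at least 1 read in some library. Small RNA was sequenced from 15 mouse libraries on the C57BL/6 strain, wild type (WT) or miR-302 knockout (KO). The E7.5 libraries (2 WT, 2 KO) came from whole embryos, the E8.5 libraries (3 WT, 4 KO) from cells sorted for Wnt1-Cre, and the E9.5 libraries (2 WT, 2 KO) from cells sorted for Sox10. Wnt1 is active in the dorsal neural tube, where neural crest arises, and Sox10 is a transcription factor of the crest cells that have left it. Each stage thus came with its own tissue and sort, which cannot be told apart from it. The labels give no allele for the knockout and no reporter for either sort, and they name no litters or cultures. The p-values thus rest on the spread among the sequenced samples, part of which may be technical. In bulk samples such as these, fewer cells of a type and less RNA per cell cannot be told apart.

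The Dlk1-Dio3 region carries protein-coding genes that are expressed from the paternal chromosome and noncoding RNAs, Meg3, Rian and Mirg among them, that are expressed from the maternal chromosome. The hairpins of the cluster lie on the same strand as these noncoding RNAs and are known to be cut from long maternal transcripts. A microRNA pairs with messenger RNAs through its seed, and the hairpins of this cluster are best known for roles in neurons. In rat neurons miR-134, miR-329 and miR-381 act in dendrite growth, and in the mouse cortex miR-369, miR-496 and miR-543 restrain N-cadherin during neurogenesis. Silencing of the maternal transcripts is a known mark of mouse stem cell lines with poor developmental potential.

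RefSeq listed 66 mature arms for the 35 hairpins, both arms for 31 of them and 1 arm for the other 4. The deposited values are per hairpin, so the 2 arms below were not measured apart. The arms of the 5 hairpins with the most reads are shown because they carried most of the signal described here; capitals mark the seed, bases 2 to 8 from the start.
miR-541-5p: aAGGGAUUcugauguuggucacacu
miR-541-3p: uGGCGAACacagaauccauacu
miR-409-5p: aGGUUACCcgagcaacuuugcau
miR-409-3p: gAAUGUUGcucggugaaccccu
miR-382-5p: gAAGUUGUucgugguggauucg
miR-382-3p: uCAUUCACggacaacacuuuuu
miR-379-5p: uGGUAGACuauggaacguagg
miR-379-3p: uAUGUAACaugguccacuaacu
miR-411-5p: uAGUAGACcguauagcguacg
miR-411-3p: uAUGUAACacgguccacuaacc
These 5 hairpins held 10 different arms with 9 seeds, since miR-379-3p and miR-411-3p share AUGUAAC. Over the whole cluster the 66 arms held 61 distinct seeds, so nearly every arm has a seed of its own. None of the 66 arms had AAGUGCU, the miR-302 seed, which 5 mouse arms hold.

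The 5 seeds held by more than 1 arm each joined a pair of cluster arms and occurred in no other listed mouse arm. Beside the pair above they are shown here, with the seed in capitals, because they are the only listed arms of the cluster with a seed in common.
miR-379-5p: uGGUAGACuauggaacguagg
miR-1193-5p: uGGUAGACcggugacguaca
miR-1197-5p: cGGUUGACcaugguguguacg
miR-758-5p: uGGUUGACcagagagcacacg
miR-494-5p: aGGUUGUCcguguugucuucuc
miR-410-5p: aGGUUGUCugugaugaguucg
miR-376c-5p: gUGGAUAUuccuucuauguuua
miR-376b-5p: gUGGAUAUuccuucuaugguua
Levels within these pairs were far apart: over all 15 libraries mir-379 averaged 381 normalized counts against 15.3 for mir-1193, mir-494 146 against 26.3 for mir-410, and mir-758 27.3 against 1.03 for mir-1197. Only mir-376c and mir-376b were close, at 25.8 and 23.1. A normalized count is the read count of a hairpin divided by a size factor for its library. Comparing hairpins this way ranks reads, which also depend on how well each sequence is captured.

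Many of the 5p arms begin with related letters. The motif GGUNNNCC, noticed while reading these sequences, was present on the sense strand of 22 of the 66 arms (33.3%), from 17 hairpins, against 40 of the 1738 mouse arms listed (2.30%, these 22 among them). Of the 5p arms 16 of 34 held it (47.1%), against 24 of 727 over all mouse 5p arms (3.30%). Capitals mark the motif in the following arms, which show its usual place near the start and, in miR-409-3p and miR-323-3p, its place near the end of the opposite arm of the same hairpin.
miR-409-5p: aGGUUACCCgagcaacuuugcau
miR-409-3p: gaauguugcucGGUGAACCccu
miR-323-5p: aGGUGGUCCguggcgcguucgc
miR-323-3p: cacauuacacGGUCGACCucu
miR-494-5p: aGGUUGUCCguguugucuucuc
miR-412-5p: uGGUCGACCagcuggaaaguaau
CAUGGU was in 6 member arms (9.09%) against 26 of all arms (1.5%), and ACACGG in 5 (7.58%) against 7 (0.403%). These matches describe the letters of the arms and say nothing of their targets.

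The hairpins lie on the plus strand of chr12:109709060-109747960 in GRCm38.p6, the patch level of mm10 in the reference used here, a span of 38901 bases. The listed run ends with mir-410 and 1 further hairpin, mir-3072. The gap between neighbouring hairpins had a median of 556 bases, and 21 of the 34 gaps were under 1000. The first 22 hairpins, mir-379 to mir-539, lie outside other genes annotated in GENCODE, and the last 13, mir-382 to mir-3072, lie within Mirg, 9 of them in an exon of at least 1 transcript and 4 in introns (mir-154, mir-496a, mir-541 and mir-409). mir-299a overlaps a hairpin on the opposite strand, Mir299b, and the sources used here do not say whether reads were counted by strand, so its 2 strands may share reads.

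Depth limited the lower members. Libraries held 1706 to 323389 hairpin reads, and 1 read was worth 0.147 to 19.3 normalized counts. The shallowest libraries were E8.5 KO replicates 3 and 4, with 1706 and 9757 reads. All 35 members had a read in E8.5 WT replicate 3, but only 16 in E8.5 KO replicate 3 and 17 in E9.5 KO replicate 2; the other 12 libraries had 29 to 34. mir-302a to mir-302d, the targeted hairpins, summed to 4001 and 14226 normalized counts in E7.5 WT and to 31.0 and 13.2 in E7.5 KO. At E8.5 they summed to 3875 to 6522 in WT and 0 to 19.3 in KO. At E9.5 they summed to 338 and 466 in WT and still to 148 and 75.4 in KO, so the knockout label there rests on a partial drop. None of mir-302a to mir-302d was lower in E9.5 KO at an adjusted p below 0.05 (limma).

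Together the 35 hairpins took 97075 of 1336573 reads, 7.26% of all. The summed level was highest in E7.5 embryos and lowest in E9.5 Sox10 cells in both genotypes. In E7.5 WT it was 4653 and 8612 normalized counts (6632 ± 2800, SD, n = 2), and in E7.5 KO 9346 and 5654 (7500 ± 2610, n = 2). In E8.5 WT it was 3797, 3450.2 and 3812 (3686 ± 205, n = 3), and in E8.5 KO 3938, 3209, 3693 and 2220.0 (3265 ± 760, n = 4). In E9.5 WT it was 2087 and 1612 (1849.5 ± 335, n = 2), and in E9.5 KO 1399.6 and 1021 (1210.3 ± 268, n = 2). Every E7.5 library stood above every E8.5 library, and every E8.5 library above every E9.5 library, and at E9.5 both KO libraries stood below both WT libraries.

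**Figure D1:**
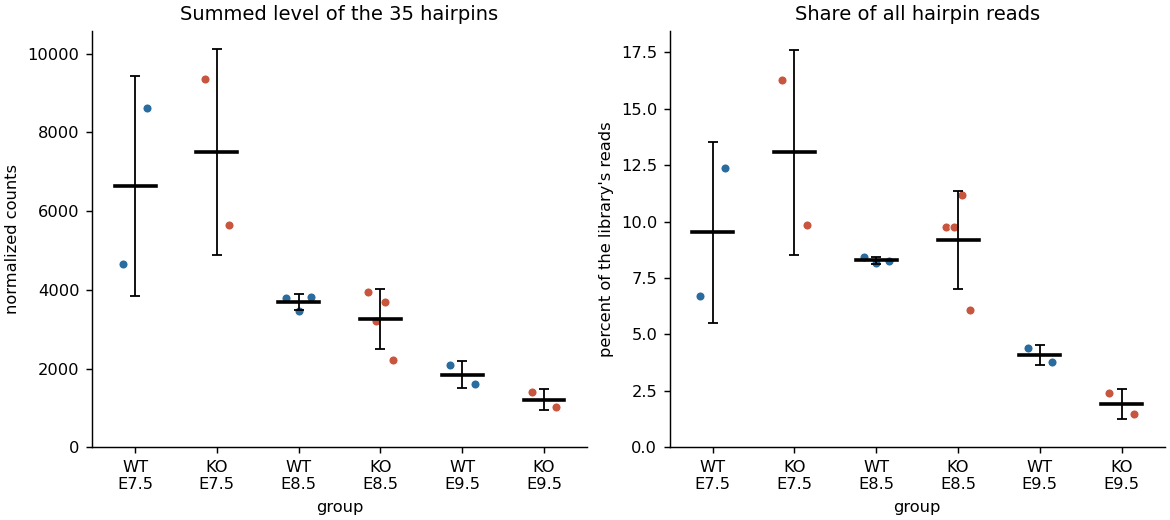
Summed level of the 35 hairpins in normalized counts (left) and their share of the library's hairpin reads in percent (right), by genotype and stage; points are libraries (blue WT, red KO), the horizontal line is the group mean and the bar its SD. The summed level steps down from 4653 to 9346 at E7.5 to 1021 to 2087 at E9.5, while the shares of E7.5 and E8.5 libraries overlap.

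The share of reads gave a different picture of the first step. It was 6.70% and 12.4% in E7.5 WT and 16.3% and 9.85% in E7.5 KO, against 8.16% to 8.44% in E8.5 WT and 6.10% to 11.2% in E8.5 KO, so the E7.5 and E8.5 shares overlapped in both genotypes. The share at E9.5 was 4.39% and 3.78% in WT and 2.41% and 1.46% in KO. The 95% exact (Clopper-Pearson) binomial intervals, which cover counting error only, were 3.68% to 3.88% for the lower WT library and 2.26% to 2.56% for the higher KO library. The E9.5 shares were below those of the earlier libraries, and the KO shares below the WT shares, on this scale as well.

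A few hairpins carried the cluster. mmu-mir-541, whose product is known to limit neurite outgrowth in rat PC12 cells, averaged 942 normalized counts over all 15 libraries and led the cluster in the mean of each of the 6 groups. mmu-mir-409 followed at 494, mmu-mir-382 at 444, mmu-mir-379, the first hairpin of the cluster, at 381, and mmu-mir-411 at 286 (the species prefix mmu- is left out elsewhere). The top 3 held 48.2% of the cluster's mean level, the top 5 65.3% and the top 10 87.8%. In all, 9 members averaged at least 100 normalized counts, 15 between 10 and 100, and 11 less than 10, among them mir-654 with a single read in all libraries. Members with many and few reads stood side by side: mir-654 lies between mir-376c (25.8) and mir-376b (23.1), and mir-409 next to mir-412 (28.3).

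**Figure D2:**
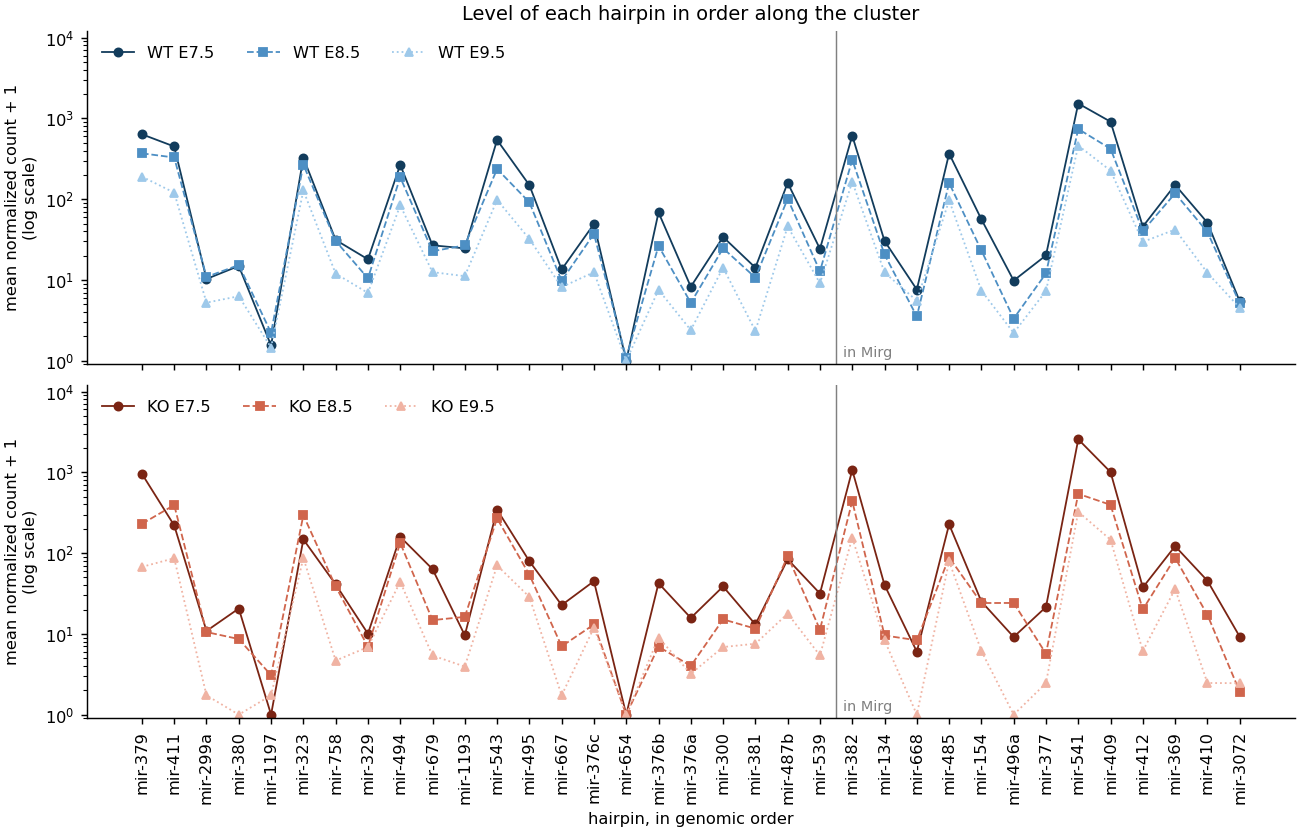
Mean normalized count + 1 of each hairpin (log scale) in genomic order, WT above and KO below, with 1 line per stage; the grey line marks where Mirg begins. The same hairpins peak at each stage, with mir-541 highest in all 6 group means, and in WT the E9.5 line is lowest at nearly every hairpin.

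The order of the members changed little between groups. Spearman's rho of the 35 group means ran from 0.789 (E8.5 KO and E9.5 KO) to 0.975 (E7.5 WT and E8.5 WT) over the 15 pairs of groups, a description across hairpins of shared transcripts. On the log2 scale, the group means of single members correlated with the cluster's summed level over the 6 groups. Pearson's r ran from 0.620 (mir-1193) to 0.997 (mir-409), median 0.896. That sum includes the member itself, so a high r of an abundant member is partly fixed in advance. mir-323 and mir-411 were among the least alike, at 0.641 and 0.768. The 13 hairpins in Mirg held 46.4% to 62.8% of the cluster's level in 14 libraries and 77.4% in E7.5 KO replicate 1.

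E7.5 KO replicate 1 stood apart in make-up. mir-541 took 43.5% of the cluster's reads there and 12.6% to 29.3% in the other 14 libraries. In the same library mir-411 took 0.867% and mir-323 0.842%, against 5.24% to 18.2% and 3.8% to 11.5% elsewhere. Its 2 E7.5 KO values for a member therefore often lay far apart: mir-541 was at 4061 and 1058, mir-382 at 1559 and 572, and mir-411 at 81.0 and 357, while mir-379 was at 987 and 926.

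**Figure D3:**
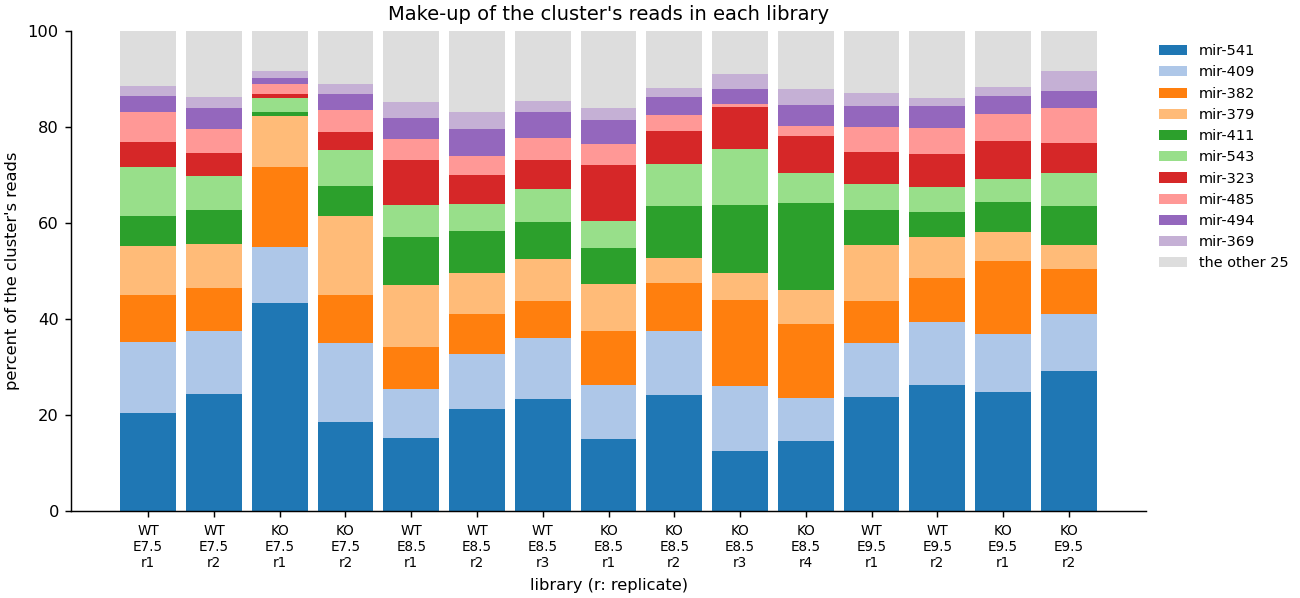
Share of the cluster's reads in percent taken by each of the 10 most abundant hairpins and by the other 25 together, 1 bar per library. mir-541 takes 43.5% in E7.5 KO replicate 1 and at most 29.3% in any other library.

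For the tests, 30 members passed the filter, which asked for 10 or more normalized counts in 2 or more libraries. The 5 that did not, mir-1197, mir-654, mir-376a, mir-668 and mir-3072, had 1 to 143 reads in all. Fold changes are differences of group means on log2(normalized count + 1), with standard errors (SE). For low hairpins they can understate or overstate the change. In KO, mir-376b was at -3.21 for E8.5 against E7.5, and at -1.97 with edgeR. mir-496a was at -3.38 for E9.5 against E8.5, and at -7.04 with edgeR. Adjusted p-values are limma's with Benjamini-Hochberg adjustment over all 299 tested hairpins, and a hairpin passed at an adjusted p below 0.05. Members with few reads can pass the filter through the group where they are high, so counts over the 30 are a description. Comparisons that share a group of libraries are not independent of each other.

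From E7.5 embryos to E8.5 Wnt1-Cre cells in WT, no member passed, while 17.1% of all tested hairpins passed as lower. At an unadjusted p below 0.05, 2 members were lower with limma and 0 with edgeR, beside 70 and 72 of all 299 hairpins. DESeq2 called 1, mir-543, against 25.1% of all hairpins called lower by that tool. mir-409 stood at 682 and 1138 in E7.5 WT and at 384, 391 and 484 in E8.5 WT (log2 fold change -1.08 ± 0.42, adjusted p = 0.0996). mir-543 stood at 477 and 603 and then at 252, 196 and 259 (-1.19 ± 0.46, adjusted p = 0.0908). Neither pair of groups overlapped, and 10 of 30 members did not overlap and were lower, against 38.8% of all hairpins. mir-541 went from 955 and 2103 to 583, 739 and 895, also without overlap (-0.96 ± 0.55, adjusted p = 0.289). mir-411 was at 287 and 609.7 and then at 382, 301 and 299, and mir-323 at 239.7 and 411 and then at 357, 211 and 232, both overlapping.

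The median log2 fold change of the 30 members in that step was -0.53, beside -0.48 for all 299 hairpins. Scaling libraries by TMM or by their total moved the median of all hairpins by 0.53 and 0.58, to 0.05 and 0.11, and that of the members to -0.01 and 0.09, so the direction of this step for the cluster depends on the scaling. The 4 members against the median, all at low levels, were mir-758 (0.25 ± 0.93), mir-1193 (0.42 ± 1.3), mir-380 (0.22 ± 1.05) and mir-299a (0.24 ± 1.32), and none passed.

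From E8.5 Wnt1-Cre cells to E9.5 Sox10 cells in WT, all 30 tested members had a fitted value below 0, with a median of -1.09 beside 0.03 for all hairpins. None passed, and 1.67% of all hairpins passed as lower. The 30 were below 0 under all 3 scalings, with medians of -1.09 with TMM and -1.10 with totals. Without overlap between the groups, 25 of 30 were lower (83.3%), against 24.7% of all hairpins. At an unadjusted p below 0.05, 5 members were lower with limma and 9 with edgeR, beside 23 and 35 of all 299 hairpins. edgeR called 0 members, against 6.02% of all hairpins called lower. DESeq2 called 5 (mir-369, mir-376b, mir-376c, mir-381 and mir-543), against 9.03% of all hairpins. A fit on these 5 libraries alone, with its own estimate of the spread, called 9. The share of all hairpins called by that fit was not computed, so the 9 cannot be set against it.

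Single members show the size of this step. mir-369, known from the mouse cortex for its action on N-cadherin, was at 132, 126 and 93.4 in E8.5 WT and at 55.1 and 27.1 in E9.5 WT (log2 fold change -1.56 ± 0.52, adjusted p = 0.138). mir-411 was at 382, 301 and 299 and then at 155 and 84.5 (-1.50 ± 0.57, adjusted p = 0.179). mir-543 was at 252, 196 and 259 and then at 111 and 83.3 (-1.27 ± 0.46, adjusted p = 0.176). The E9.5 values of these 3 were below each E8.5 value. mir-494 was at 162, 192 and 204 and then at 91.0 and 74.9 (-1.16 ± 0.48, adjusted p = 0.237). mir-379 was at 489, 289 and 328 and then at 241 and 138 (-0.97 ± 0.48, adjusted p = 0.376), and mir-541 at 583, 739 and 895 and then at 497 and 424 (-0.66 ± 0.55, adjusted p = 0.660). Neither overlapped, and mir-541 had the smallest difference of the 10 most abundant members.

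Across the whole WT series, E9.5 against E7.5, 6 members fell: mir-543, mir-409, mir-382, mir-379, mir-411 and mir-369. They are among the 10 most abundant, and 6 of 30 is 20%, beside 17.7% of all hairpins passing as lower. mir-543 went from 477 and 603 to 111 and 83.3 (log2 fold change -2.47 ± 0.50, adjusted p = 0.00220), a 5.54-fold fall that stayed past the threshold in all 14 alternatives run for it. mir-409 went from 682 and 1138 to 237 and 213 (-1.97 ± 0.46, adjusted p = 0.00616), 3.91-fold. mir-382 went from 460.1 and 761 to 181 and 146 (-1.86 ± 0.55, adjusted p = 0.0266).

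The other 3 falls were closer to the threshold. mir-379 went from 476 and 796 to 241 and 138 (-1.75 ± 0.52, adjusted p = 0.0275), mir-369 from 96.7 and 202 to 55.1 and 27.1 (-1.83 ± 0.57, adjusted p = 0.0356) and mir-411 from 287 and 609.7 to 155 and 84.5 (-1.86 ± 0.62, adjusted p = 0.0482). The groups of all 6 members did not overlap. mir-541 went from 955 and 2103 to 497 and 424, mir-323 from 239.7 and 411 to 141 and 113, mir-485 from 296 and 437 to 108 and 84.2 and mir-494 from 157 and 374 to 91.0 and 74.9, also without overlap, but did not pass. In all 25 of 30 members were lower without overlap (83.3%), beside 47.8% of all hairpins, and the median of the 30 was -1.69 beside -0.65.

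The number of calls in that comparison rested on the method. With TMM scaling or totals 1 member passed, mir-543, whereas all 30 and 29 of 30 fitted values stayed below 0. edgeR called 4 (mir-543, mir-154, mir-376b and mir-381), against 17.1% of all hairpins called lower, and DESeq2 16 against 25.1%. Without E7.5 WT replicate 2 or without E9.5 WT replicate 2, 1 member passed.

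**Figure D4:**
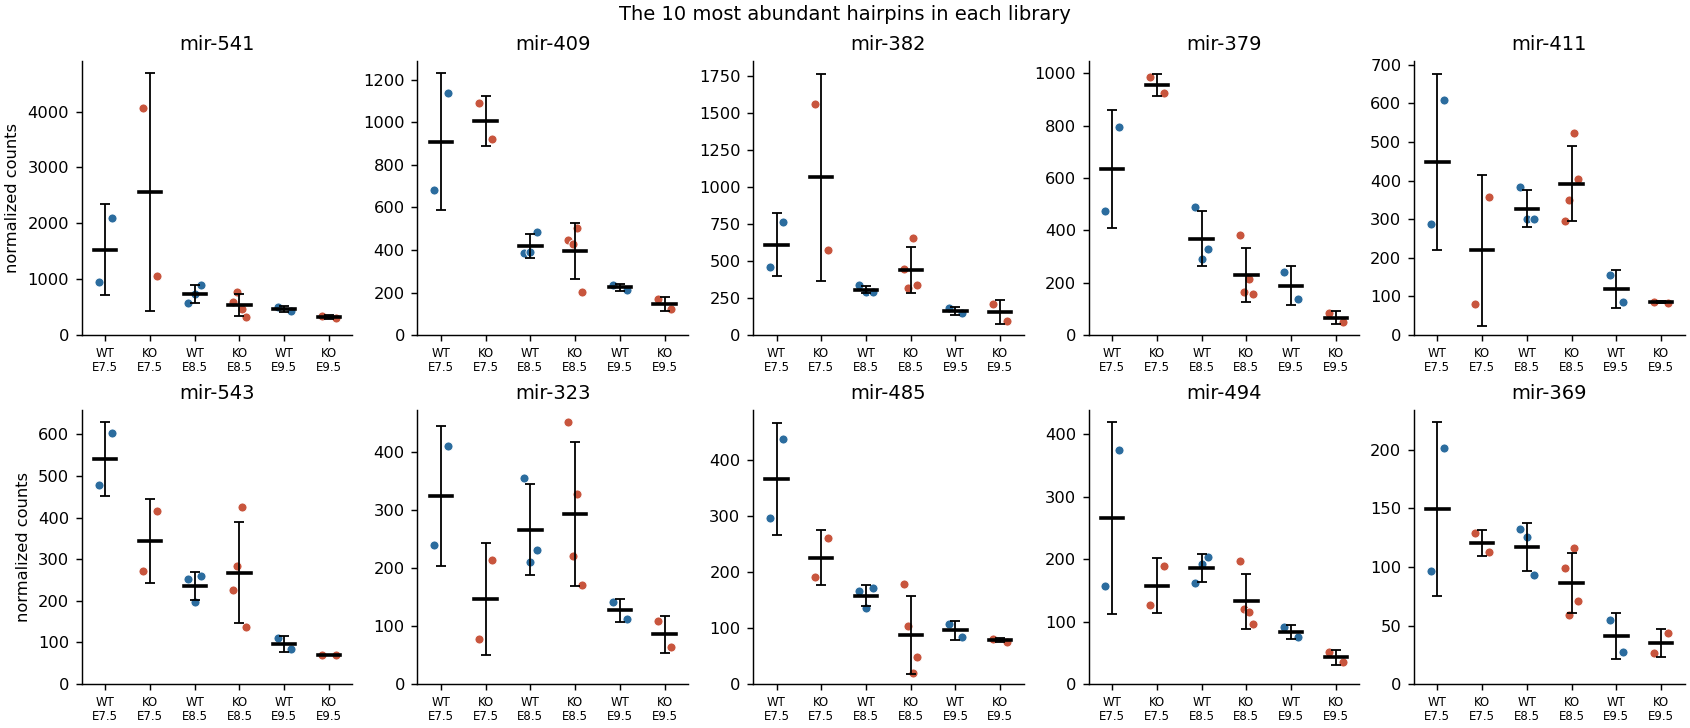
Normalized counts of the 10 most abundant hairpins in each library by genotype and stage (blue WT, red KO; line, group mean; bar, SD). mir-409 steps down in WT from 682 and 1138 at E7.5 to 237 and 213 at E9.5, and mir-541 reaches 4061 in 1 E7.5 KO library.

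From E7.5 to E8.5 in KO, 4 members fell: mir-541, mir-379, mir-409 and mir-376b, 13.3% of the 30 beside 20.7% of all hairpins. mir-379 was at 987 and 926 in E7.5 KO and at 382, 166, 213 and 157 in E8.5 KO (log2 fold change -2.15 ± 0.45, adjusted p = 0.00236), a 4.44-fold fall that held in all 16 alternatives run for it. mir-541 was at 4061 and 1058 and then at 595, 778, 464 and 325 (-2.01 ± 0.52, adjusted p = 0.00862). mir-409 was at 1089 and 922 and then at 445, 430.2, 503 and 201 (-1.42 ± 0.40, adjusted p = 0.0145). These 3 did not overlap between the groups. mir-376b, of the miR-376 family whose transcripts are known to be edited from A to I, was at 47.7 and 35.1 and then at 15.8, 4.29, 0 and 3.73 (-3.21 ± 0.97, adjusted p = 0.0214), where the 0 comes from the library in which 1 read is worth 19.3.

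mir-411 and mir-323 went the other way in the fit without passing. mir-411 was at 81.0 and 357 in E7.5 KO and at 295, 349, 522 and 403 in E8.5 KO (1.17 ± 0.54, adjusted p = 0.121), and mir-323 at 78.7 and 215 and then at 453, 222, 329 and 172 (1.07 ± 0.51, adjusted p = 0.135). The low value of each E7.5 pair is from replicate 1, the library with the unusual make-up. mir-1193 was at 0.04 ± 1.23 (adjusted p = 0.979). The median of the 30 was -1.29 beside -0.60 for all hairpins, and 10 were lower without overlap, beside 27.8% of all hairpins. In E8.5 KO replicate 3, 14 of the 30 had no read, which pulls their fitted values down. edgeR called 2, mir-379 and mir-541, against 17.7% of hairpins, and DESeq2 7, against 21.7%. Without E7.5 KO replicate 1, 1 member passed, and so it was without the 2 libraries under 10000 reads.

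From E8.5 to E9.5 in KO, 10 members fell and none rose: mir-411, mir-543, mir-379, mir-409, mir-382, mir-323, mir-494, mir-487b, mir-758 and mir-496a. That is 33.3% of the 30, beside 8.70% of all hairpins. edgeR called these 10 and 4 more, against 11.0% of all hairpins, and DESeq2 these 10 and 5 more, against 12%. mir-411 was at 295, 349, 522 and 403 in E8.5 KO and at 86.6 and 84.1 in E9.5 KO (log2 fold change -2.16 ± 0.54, adjusted p = 0.0128), a 4.45-fold fall. mir-543 was at 226, 283, 425 and 138 and then at 69.0 and 69.6 (-1.82 ± 0.43, adjusted p = 0.0107). mir-487b was at 148, 65.0, 116 and 33.6 and then at 22.0 and 11.6 (-2.22 ± 0.58, adjusted p = 0.0167).

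The lower of the called members rest on few reads. mir-758, which shares a seed with mir-1197, was at 44.2, 45.7, 38.7 and 22.4 and then at 7.34 and 0, from 5 reads (-3.70 ± 0.88, adjusted p = 0.0107). mir-496a had 12 reads in E8.5 KO, at 6.31, 1.43, 77.3 and 7.46, and none in E9.5 KO (adjusted p = 0.0343). Against 3 reads per E9.5 KO library, a mean floor of 6.55, it was at least 3.53-fold lower, but without E8.5 KO replicate 3, where 4 reads make 77.3, the E8.5 mean is 5.07 and under that floor. Without that library limma still called it (log2 fold change -2.41, adjusted p = 0.0302), at levels where no fold can be given. The call was lost without either E9.5 KO library.

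mir-379 was at 382, 166, 213 and 157 and then at 83.6 and 49.3 (-1.72 ± 0.45, adjusted p = 0.0167). mir-494 was at 197, 121, 116 and 97.0 and then at 51.3 and 34.8 (-1.57 ± 0.45, adjusted p = 0.0239). mir-409 was at 445, 430.2, 503 and 201 and then at 169 and 122 (-1.37 ± 0.40, adjusted p = 0.0257). The values of these 3 did not overlap between the groups. mir-323 fell by 1.71 on the log2 scale (adjusted p = 0.0280) and mir-382 by 1.55 (adjusted p = 0.0291), and neither overlapped. mir-541 was at 595, 778, 464 and 325 and then at 349 and 299, overlapping, and did not pass.

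Members against the median in this step were mir-485 (0.26 ± 0.66, adjusted p = 0.813), mir-376c (0.09 ± 0.75, adjusted p = 0.983) and mir-376b (0.87 ± 0.97, adjusted p = 0.540). mir-485, known from rat neurons for a role at synapses, was at 178, 104, 19.3 and 48.5 in E8.5 KO and at 80.7 and 75.4 in E9.5 KO. The median of the 30 was -1.56 beside 0.40 for all hairpins, and -1.92 and -2.19 with TMM and totals, under which the median of all hairpins moved by -0.40. Zeros enter both groups here, 14 of the 30 in E8.5 KO replicate 3 and 14 in E9.5 KO replicate 2. Lower without overlap were 11 of 30 (36.7%), beside 12.4% of all hairpins. The count depends on 1 library: without E9.5 KO replicate 2 no member passed, and without E8.5 KO replicate 3, 16 did. A fit on the 6 KO libraries alone called 1. For these refits the share of all hairpins called was not computed.

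Some microRNAs of other cell types moved with the step to E9.5, and their part in these falls was not tested. From E8.5 to E9.5 in WT, 1.34% of all tested hairpins passed as higher and 1.67% as lower. In KO these shares were 18.4% and 8.70%. All 5 mesenchymal microRNAs on the list used (mir-199a-1, mir-199a-2, mir-199b, mir-214 and mir-140) were detected, and their sum was 82.6 to 155 in E8.5 WT and 1630.5 to 1779 in E9.5 WT, with 2 of 5 passing as higher. In KO that sum was 67.8 to 339.5 and then 676 to 747, with 3 of 5 higher. In KO the sum of 5 endoderm and liver microRNAs was 58.0 to 297 and then 763 to 2361 (4 of 5 higher). That of 3 vascular microRNAs was 77.3 to 158 and then 377 to 806 (2 of 3 higher). In WT the endoderm and liver sum was 134 to 182 and then 152 to 326, with 0 passing. The vascular sum in WT was 57.1 to 127 and then 159 to 200, also with 0 passing. The neural sum was 298 to 944 in E8.5 KO and 780 to 1642 in E9.5 KO (2 of 10 higher and 1 lower). It overlapped between the stages in both genotypes, and 2 of 10 is near the 18.4% of all hairpins. The sum of 7 epithelial microRNAs went down with the cluster, from 228 to 291 in E8.5 WT to 26.9 to 29.0 in E9.5 WT (1 of 7 lower) and from 213 to 429 to 128 to 194 in KO (3 of 7 lower). The 10 listed microRNAs of pluripotent cells, the targeted ones among them, had 3 lower in WT, and 2 lower and 3 higher in KO. The 3 higher were targeted hairpins, since only mir-302a to mir-302d had fitted values above 0 in KO (3.84, 3.52, 1.39 and 4.42). Of 6 muscle microRNAs 1 was tested and did not pass, and of 6 blood microRNAs, mir-451a, mir-486b and mir-142a were at 0 in every library.

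**Figure D5:**
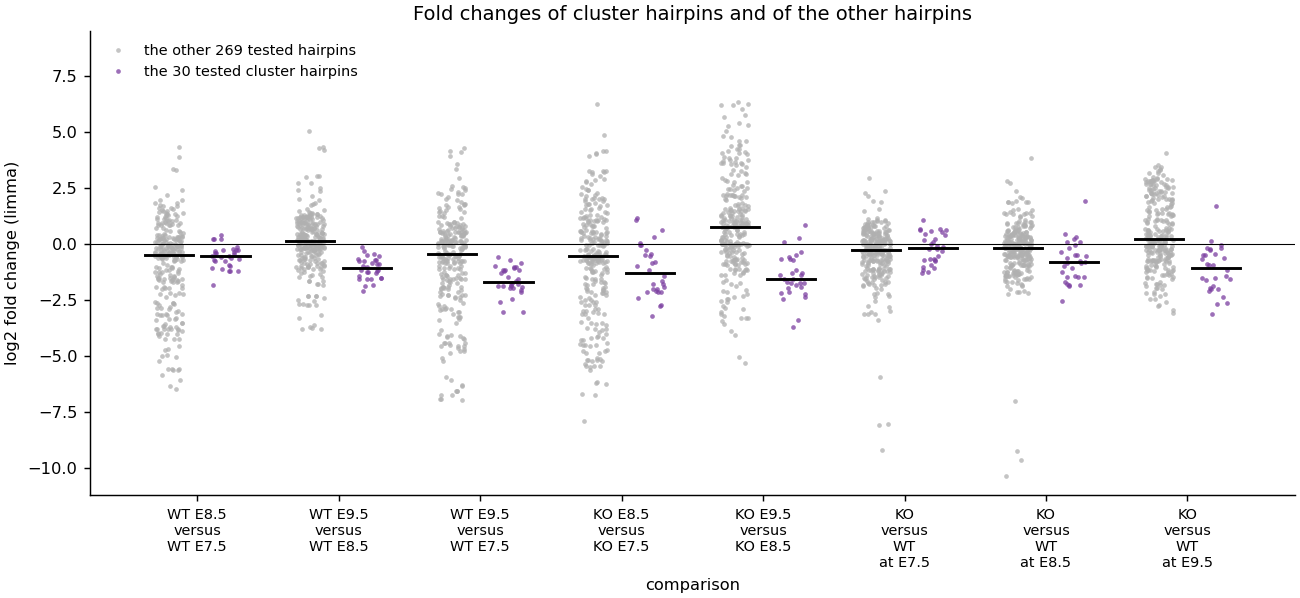
Log2 fold changes (limma) in each comparison of the 30 tested cluster hairpins (purple) and the other 269 tested hairpins (grey), 1 point per hairpin; black lines are medians of the points shown. All 30 cluster hairpins lie below 0 in both WT comparisons of E9.5 with an earlier stage and 27 of 30 in the KO one, and they are spread around 0 between KO and WT at E7.5.

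The comparison of KO with WT embryos at E7.5 asks whether the cluster responds to the loss of miR-302. No member passed with limma, edgeR or DESeq2, while 2.68% of all hairpins passed as lower with limma. At an unadjusted p below 0.05 the number of members was 0 with each of the 3 tools. Of all 299 hairpins, 23, 23 and 16 were lower with limma, edgeR and DESeq2, and 5 were higher with each. The median of the 30 was -0.17 beside -0.25 for all hairpins, and 13 were above 0. mir-379 was at 476 and 796 in WT and at 987 and 926 in KO (0.63 ± 0.52, adjusted p = 0.983). mir-541 was at 955 and 2103 in WT and at 4061 and 1058 in KO (0.55 ± 0.60, adjusted p = 0.989), and mir-382 at 460.1 and 761 and at 1559 and 572 (0.67 ± 0.55, adjusted p = 0.983). mir-409 differed by 0.19 ± 0.46 (adjusted p = 1). mir-379 was higher in KO without overlap, as was mir-679, making 2 of 30 beside 10.4% of all hairpins, and 4 were lower without overlap beside 20.4%. mir-411 (-1.29 ± 0.62) and mir-323 (-1.26 ± 0.59) had the lowest p among the members (adjusted p = 0.497 for both). Leaving out E7.5 KO replicate 2, so that replicate 1 stands alone, 1 member passed.

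Between KO and WT at E8.5, 0 members passed with limma, edgeR or DESeq2, and 1.34% of all hairpins passed as lower with limma. At an unadjusted p below 0.05, 3 members were lower with limma, 2 with edgeR and 2 with DESeq2, beside 10, 10 and 7 of all 299 hairpins. With DESeq2 1 further member was higher, beside 27 of all hairpins. The summed level was 3686 ± 205 in WT (n = 3) and 3265 ± 760 in KO (n = 4), overlapping. The median of the 30 was -0.80 beside -0.20, with 24 below 0. In E8.5 KO replicate 3, the shallowest library, 14 of the 30 had no read, and each 0 pulls a fitted value down. The log2 ratio of the summed level, carried by the abundant members, was -0.18. The lowest p was that of mir-376b, at 25.7, 24.4 and 26.2 in WT and 15.8, 4.29, 0 and 3.73 in KO (-2.55 ± 0.85, adjusted p = 0.304). mir-376b and mir-376c were lower without overlap, 2 of 30 beside 6.35% of all hairpins.

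The abundant members overlapped between WT and KO at E8.5. mir-541 was at 583, 739 and 895 and at 595, 778, 464 and 325 (-0.50 ± 0.46, adjusted p = 0.664). mir-379 was at 489, 289 and 328 and at 382, 166, 213 and 157 (-0.74 ± 0.40, adjusted p = 0.572). mir-382 was at 334, 291 and 293 and at 443, 317, 657 and 339.5 (0.46 ± 0.42, adjusted p = 0.664), mir-411 at 0.24 ± 0.47 (adjusted p = 0.880) and mir-543 at 0.08 ± 0.38 (adjusted p = 0.954), 3 of the 6 members against the median. Only the label code 169, whose meaning the labels do not give, holds both genotypes at E8.5. There the summed level was 3450.2 in WT replicate 2 and 2220.0 in KO replicate 4, 1.55-fold lower in KO, from 1 library each. These libraries held 124775 and 9757 hairpin reads, and 1 read was worth 0.339 and 3.73 normalized counts.

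Between KO and WT at E9.5, 0 members passed and 0% of all hairpins passed as lower with limma. At an unadjusted p below 0.05, 2 members were lower with limma, 8 with edgeR and 5 with DESeq2. Of all 299 hairpins, 17, 32 and 24 were lower in the same order. Neither edgeR nor DESeq2 called a member. Still 28 of 30 fitted values were below 0, with a median of -1.05 beside 0.02 for all hairpins, and 18 of 30 (60.0%) were lower without overlap beside 27.4% of all hairpins. That median is pulled down by zeros, at 14 of the 30 members in E9.5 KO replicate 2 and 3 in replicate 1. The most negative values were those of low members, mir-412 (-3.14) and mir-380 (-2.65). With TMM and totals the median of the members was -1.57 and -1.32, and that of all hairpins -0.54 and -0.32. The summed level was 1.53-fold lower in KO and the share of reads 2.12-fold lower.

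The member with the lowest p at E9.5 was mir-379, at 241 and 138 in WT and at 83.6 and 49.3 in KO (-1.49 ± 0.52, adjusted p = 0.185). mir-409 was at 237 and 213 in WT and at 169 and 122 in KO (-0.64 ± 0.46, adjusted p = 0.430), and mir-494 at 91.0 and 74.9 and at 51.3 and 34.8 (-0.95 ± 0.52, adjusted p = 0.328). mir-541 was at 497 and 424 and at 349 and 299 (-0.51 ± 0.60, adjusted p = 0.645). None of these 4 overlapped, and none passed. mir-382 (181 and 146 against 213 and 95.7), mir-411 (155 and 84.5 against 86.6 and 84.1) and mir-369 (55.1 and 27.1 against 26.4 and 43.5) overlapped between the groups. mir-381 (1.70 ± 1.0, adjusted p = 0.345) and mir-376b (0.15 ± 1.12, adjusted p = 0.949) were above 0. In E9.5 KO replicate 2, 14 of the 30 tested members had no read.

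The E9.5 WT libraries carry label code 209 and the KO libraries code 171, so code and genotype cannot be told apart. Marker sums also differed between the E9.5 groups, and their part in the lower cluster level was not tested. The sum of 10 neural microRNAs was 206 and 307 in WT and 780 and 1642 in KO, that of the 5 endoderm and liver microRNAs 152 and 326 in WT and 763 and 2361 in KO, and that of the 5 mesenchymal ones 1630.5 and 1779 in WT and 676 and 747 in KO. The 3 vascular microRNAs summed to 179 ± 29.2 in WT and 592 ± 304 in KO (SD, n = 2 each). All of these listed microRNAs were detected, and 0 of each of these lists passed between the groups. The 7 epithelial microRNAs, all detected, summed to 26.9 to 29.0 in WT and 128 to 194 in KO, and 1 of 7, mir-200c, passed as higher in KO. Of all tested hairpins 0.669% passed as higher in KO.

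Whether the effect of KO differed between stages was tested for each member. None of 30 passed with limma, beside 2.34% of all hairpins, and edgeR also called 0. At an unadjusted p below 0.05 the number was 1 with limma and 2 with edgeR, beside 36 and 35 of all 299 hairpins. The 1 was mir-379 (limma adjusted p = 0.352), which was higher in KO at E7.5 and lower in KO at E9.5 without overlap in either.

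Other microRNAs of the same region mostly moved in the same direction as the cluster. Of 20 listed hairpins outside the cluster 14 were tested, and 0 passed between KO and WT at any stage. As lower, 1 of 14 passed in each of WT E9.5 against E7.5, KO E8.5 against E7.5 and KO E9.5 against E8.5. Over all hairpins 17.7%, 20.7% and 8.70% passed as lower in these comparisons, so the counts do not set the region apart. Their median was -1.01 for WT E9.5 against E8.5, all 14 below 0, and -1.03 for the same step in KO, 13 of 14 below 0. Between KO and WT at E9.5 it was -0.76 with 10 of 14 below 0, beside -1.05 for the cluster. mir-127, which lies antisense to Rtl1 and is needed for the mouse placenta, was at 54.1 ± 23.2 in E9.5 WT and 69.2 ± 33.5 in E9.5 KO, and mir-434, from the same antisense transcript, at 101 ± 19.2 and 125 ± 8.27 (n = 2 each). Between KO and WT at E9.5 the fitted values were 0.33 ± 0.62 for mir-127 (adjusted p = 0.797) and 0.31 ± 0.46 for mir-434 (adjusted p = 0.749), both among the 4 of 14 that were not below 0. Whether these hairpins differ from the cluster was not tested. mir-136 was listed at 0 in every library.

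In the authors' deposited table of Mfuzz clusters, 19 members were in cluster 6, 13 in cluster 5, 1 (mir-668) in cluster 3, and 2 (mir-1197 and mir-654) were not listed. Over the 413 microRNAs of that table, clusters 6 and 5 held 13.3% and 15.3%.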

How the data were processed

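The authors' deposited signal values are normalized counts per hairpin, each a read count divided by 1 size factor per library. Per the submitters' processing notes, the pipeline named FastQC 0.11.5, STAR 2.7.0f and mm10. Which counter, strand setting and size factor tool were used was not given in the sources used here. Of 6086 values above 0, 100% were whole multiples of what 1 read was worth in the library, within 0.001, so reads were recovered. The authors' deposited cluster numbers were used as labels only. In the deposited sheets 1 column matched no sample and was not used. All 2108 entries for mature arms were 0.

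Tests used limma 3.58.1 in R 4.3.3 (eBayes with trend, two-sided) on log2(normalized count + 1), 6 group means and all 15 libraries. The recovered reads also went through DESeq2 1.42.0 and the quasi-likelihood test of edgeR 4.0.16. The code was tested on simulated data. Sequences, positions and seeds are from RefSeq (GRCm38.p6, all 35 hairpins matched) and gene overlaps from GENCODE. Named were the 10 members of highest mean, up to 5 called members per direction and comparison, up to 3 against the members' median, and mir-302, mir-127, mir-136 and mir-434. Members such as mir-679, mir-381 or mir-154 were also named after their values were seen, where a count was small. The members and the lists were chosen with earlier results of these data known. Depth was 1706 to 323389 reads per library, and 3 reads was the floor used for members at 0.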

Additional observations from a re-analysis of the deposited data

Results flagged for a closer look

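mir-496a was at 77.3 normalized counts in E8.5 KO replicate 3, far above 7.46, 6.31 and 1.43 in the other 3 libraries of that group. The value is 4 reads in a library of 1706. Among 37 values of the cluster checked this way in the group of 4 libraries, this was the 1 flagged, and chance flags about 1 in 20.

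mir-379 and mir-679 moved in opposite directions between KO and WT at 2 stages, without overlap at either. The KO mean of mir-379 was 321 normalized counts above WT at E7.5 and stood at -123 relative to WT at E9.5. For mir-679 the differences were 36.5 at E7.5 and -7.11 at E9.5, where 1 of the KO libraries had no read. The difference between stages was tested in limma over all stages, and neither passed (adjusted p = 0.352 for mir-379 and 0.537 for mir-679).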

How the results depend on the processing

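The 20 calls of single members kept their direction in all 305 alternative values and their side of the threshold in 214; in 91 they lost it. The limits are depth and group size. Most groups hold 2 libraries, 14 of the 30 tested members had no read in E8.5 KO replicate 3 or in E9.5 KO replicate 2, and scaling moved the median of all hairpins by up to 0.58 on the log2 scale. Counts of 0 between KO and WT at the later stages and for the difference of KO effects between stages stayed 0 in the alternatives run. The cause of the changes below was not tested.

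Members past the threshold numbered 0, 0, 6, 4 and 10 for WT E8.5 against E7.5, WT E9.5 against E8.5, WT E9.5 against E7.5, KO E8.5 against E7.5 and KO E9.5 against E8.5. The share of all hairpins called was computed only for limma's main fit, edgeR and DESeq2. Counts from the other alternatives below thus show only how the number of calls varies. For the first, DESeq2 gave 1, a fit on only the groups compared 2, and leaving out the libraries under 10000 reads 1. For the second, DESeq2 gave 5 and only the groups compared 9. For the third, DESeq2 gave 16, TMM scaling 1, scaling by totals 1, no filter 2 and the fit without the libraries under 10000 reads 11. For the fourth, edgeR gave 2, DESeq2 7, TMM scaling 2, a pseudocount of 10 gave 8, and the replicate block, only the groups compared and no libraries under 10000 reads gave 1 each. For the fifth, no filter gave 5 and only the groups compared 1.

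Leaving out each library in turn gave 0 members for WT E8.5 against E7.5 and for WT E9.5 against E8.5, 1 to 8 for WT E9.5 against E7.5, 1 to 9 for KO E8.5 against E7.5 (9 without E8.5 KO replicate 1), 0 to 16 for KO E9.5 against E8.5, and 0 to 1 for KO against WT at E7.5. Deviations of same-numbered WT and KO libraries from their group means had correlations of -0.23 for E7.5, of 0.14, 0.13 and 0.09 for E8.5, and of 0.19 for E9.5. In groups of 2 libraries the deviations mirror each other, so E7.5 and E9.5 give 1 value each. These values cannot decide whether same-numbered libraries were paired. With the replicate block the counts were 0, 0, 4, 1 and 9 in the order above.

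The log2 ratio of the summed level was -0.85, -1.84, -1.20 and -1.43 for WT E8.5 against E7.5, WT E9.5 against E7.5, KO E8.5 against E7.5 and KO E9.5 against E8.5. TMM scaling gave -0.33 for the first, -1.35 for the second and -1.89 for the fourth, and scaling by totals -0.20, -1.22, -0.51 and -2.25. For KO against WT at E9.5 the ratio was -0.61, and -1.29 with TMM and -1.08 with totals. At E8.5 it was -0.18, and 0.15 with totals, and at E7.5 0.18, and -0.047 without mir-541, so neither direction is settled. Leaving out 1 library gave -1.22 to -0.34 for WT E8.5 against E7.5, -1.19 to -0.82 for WT E9.5 against E8.5, -2.22 to -1.33 for WT E9.5 against E7.5, and -0.23 to 0.69 for KO against WT at E7.5.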
